A study of Mus musculus with 24 samples.

Results

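Aldoc, Slc1a2, Slc1a3, Gja1, Glul, Gfap, Aqp4, S100b, Sox9 and Aldh1l1 are genes widely used to recognise astrocytes, the star-shaped support cells of the brain. They were taken by symbol from a table of raw counts per gene, so they are 10 of the 45792 genes in the table. The rule uses symbols and no measured value, but it and the members were chosen with earlier results of these data known. All 10 passed the filter on low counts that left 16777 genes to test. The counts came from 24 messenger RNA libraries of primary cortical neurons from E16.5 mouse embryos, grown for 12 days in culture. One genotype lacks H2BE, a histone H2B variant of chromatin, and carries an mCherry knock-in (labelled H2BE-KO/mCherry-KI, called KO here). The other was wild type (WT). The groups were KO control, KO with BDNF (brain-derived neurotrophic factor) for 30 min, KO with BDNF for 24 h, and the same 3 for WT, each with 4 libraries. The mCherry insertion is present in every KO library and in no WT library, so it cannot be told apart from the loss of H2BE. The cultures were labelled as neurons and no astrocyte culture or sorted astrocytes were analysed here.

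Astrocytes take up the glutamate that synapses release, convert it to glutamine and hand the glutamine back to neurons. Slc1a2 (GLT-1) and Slc1a3 (GLAST) encode the glutamate transporters of this cycle and Glul encodes glutamine synthetase, its enzyme. Aldoc encodes the aldolase isozyme of glycolysis in astrocytes and Aldh1l1 an enzyme of folate metabolism. Gja1 encodes connexin 43, the main gap junction protein that couples astrocytes, and Aqp4 the water channel of their endfeet. Gfap encodes their intermediate filament protein, S100b a calcium-binding protein, and Sox9 a transcription factor needed for glial fate. Astrocytes arise from cortical progenitors after neurons do, and a few of them commonly grow in cultures of embryonic cortical neurons. Slc1a2 messenger RNA is also known from neurons, and Sox9 is also a gene of neural progenitors, so these symbols mark astrocytes with unequal strictness.

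The start regions of 4 members are shown because Glul, Slc1a2, Slc1a3 and Gja1 are among the genes called between the genotypes. RefSeq's table of start regions on GRCm38.p6 held 9 windows of 300 bases for 8 of the 10 members, and the 250 bases before the start are printed here 5′ to 3′ on the gene's strand. Capitals mark matches to a motif on either strand. The motifs searched were the TATA box (spelled TATAAA), the CCAAT box, the Sp1 box (spelled GGGCGG), the cyclic AMP response element (spelled TGACGTCA), the AP-1 site (spelled TGANTCA), the EGR site (spelled GCGNGGGCG), the STAT site (spelled TTCNNNGAA), the SOX site (spelled AACAAT), the NFI half-site (spelled TTGGCA) and the CArG box. In the windows printed no match overlapped another.
Glul (chr1:153899679-153899928, plus strand): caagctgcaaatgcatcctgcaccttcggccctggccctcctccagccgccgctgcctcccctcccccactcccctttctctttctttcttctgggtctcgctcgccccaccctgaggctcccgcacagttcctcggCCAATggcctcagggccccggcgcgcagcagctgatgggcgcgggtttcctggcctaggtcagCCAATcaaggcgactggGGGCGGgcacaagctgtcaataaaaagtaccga
Slc1a2 (chr2:102706188-102706437, plus strand): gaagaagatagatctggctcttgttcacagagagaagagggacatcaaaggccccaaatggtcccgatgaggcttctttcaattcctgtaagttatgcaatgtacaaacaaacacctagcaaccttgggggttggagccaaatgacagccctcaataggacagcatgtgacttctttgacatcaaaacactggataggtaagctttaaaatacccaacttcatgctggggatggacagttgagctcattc
Slc1a3 (chr15:8710808-8711057, minus strand): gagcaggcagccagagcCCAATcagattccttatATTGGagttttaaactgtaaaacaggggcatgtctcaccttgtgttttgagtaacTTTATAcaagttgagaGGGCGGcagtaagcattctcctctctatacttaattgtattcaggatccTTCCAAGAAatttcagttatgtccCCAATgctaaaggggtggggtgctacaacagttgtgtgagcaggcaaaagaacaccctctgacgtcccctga
Gja1 (chr10:56377050-56377299, plus strand): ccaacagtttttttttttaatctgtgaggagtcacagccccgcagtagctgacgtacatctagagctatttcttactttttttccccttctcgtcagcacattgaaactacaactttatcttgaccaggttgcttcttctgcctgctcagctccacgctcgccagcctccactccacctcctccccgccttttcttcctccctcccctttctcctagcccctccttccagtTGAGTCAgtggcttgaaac
The Glul window had 64.8% G and C, with a pair of CCAAT boxes and an Sp1 box close to the start. Slc1a2 had 44.8% G and C and none of the letters searched, and its RefSeq start lies inside the gene as GENCODE draws it (chr2:102658659-102790784). Slc1a3 also had 44.8% G and C, with 3 CCAAT boxes, 1 TATA box, 1 Sp1 box and 1 STAT site, and Gja1 had 1 AP-1 site. Of all 32851 RefSeq windows of 300 bases, 37.4% held a CCAAT box, 35.7% an Sp1 box, 13.6% a TATA box, 8.3% a STAT site and 7.8% an AP-1 site. Over the members' windows, the CCAAT box and the Sp1 box were each in 4 of 9, the STAT site in 3, the NFI half-site in 2, and the cyclic AMP response element, the EGR site, the SOX site and the CArG box in 0. A match of letters is a description of the sequence and not a site of binding.

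Library totals ran from 19780486 to 62135270 counts. Neuron markers dominated every library, with a summed level of 7825 to 9647 CPM (counts scaled to library size with TMM factors) over 10 neuron markers, against 237 to 721 CPM over the 10 astrocyte genes. Slc1a2, which is also known from neurons, made up most of the astrocyte sum, at 159 to 575 CPM, so that sum does not measure astrocyte content. Markers of other cells were low, with 29.7 to 97.5 CPM over 10 oligodendrocyte lineage markers and 7.78 to 16.9 CPM over 10 microglia markers, and Sox10, Mag, P2ry12 and Tmem119 had a median of 0. Some KO libraries stood apart from the others. KO culture 4 had 18.5%, 21.7% and 10.9% of its counts from mitochondrially encoded genes in its control, 30 min and 24 h libraries, against 4.18% to 9.34% in the other libraries. The KO 30 min library of replicate 3 had the lowest total, and 15323 genes were detected in it. In the library labelled KO 24 h replicate 4, Hist2h2be, the H2BE gene, had 21.2 CPM, where the other KO libraries had 49.96 to 63.1 CPM and WT libraries 3.15 to 5.83 CPM. The libraries labelled KO thus had more counts of the targeted gene than those labelled WT. The part of the gene that was replaced is not given here, so these counts separate the labelled genotypes but do not check the deletion, and KO and WT stand for the labels throughout. That library also had 145 CPM of Xist together with 66.3 CPM of Ddx3y, transcripts of the inactive X and of the Y chromosome, of which every other library had at most 8.19 CPM of one or the other. Where leaving out these doubtful libraries (the 3 of KO culture 4, and replicate 3 of KO at 30 min) changed a call of the 10 astrocyte genes, both values are given. It also changed counts in the other gene lists, not all of which are printed. Shares of all genes called belong to fits with every library, and those without the doubtful libraries are not given.

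Per kilobase of exon, the scale on which genes can be compared, Slc1a2 and Glul stood first and second in every group. In WT control they had 35.8 ± 7.72 and 28.5 ± 4.51 CPM per kb (SD, n = 4), which differed by less than their spread, and Aldoc (4.77 ± 2.54) and Slc1a3 (4.11 ± 2.01) followed without differing beyond theirs. Aldh1l1 had 1.55 ± 0.724 CPM per kb in WT control, and Gfap, Aqp4, Sox9, S100b and Gja1 had 0.393 to 0.613 CPM per kb. In KO control, Slc1a2 and Glul had 18.9 ± 4.60 and 17.4 ± 3.45 CPM per kb, Slc1a3 1.99 ± 1.06, and the remaining 7 genes 0.160 to 1.17. Sox9 changed its place most, at the third rank in KO 30 min (2.92 ± 0.624 CPM per kb) and the eighth in WT control (0.599 ± 0.129 CPM per kb). The lowest members rested on few reads: S100b had 0 to 44 counts per library and Gfap 0 to 245.

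**Figure D1:**
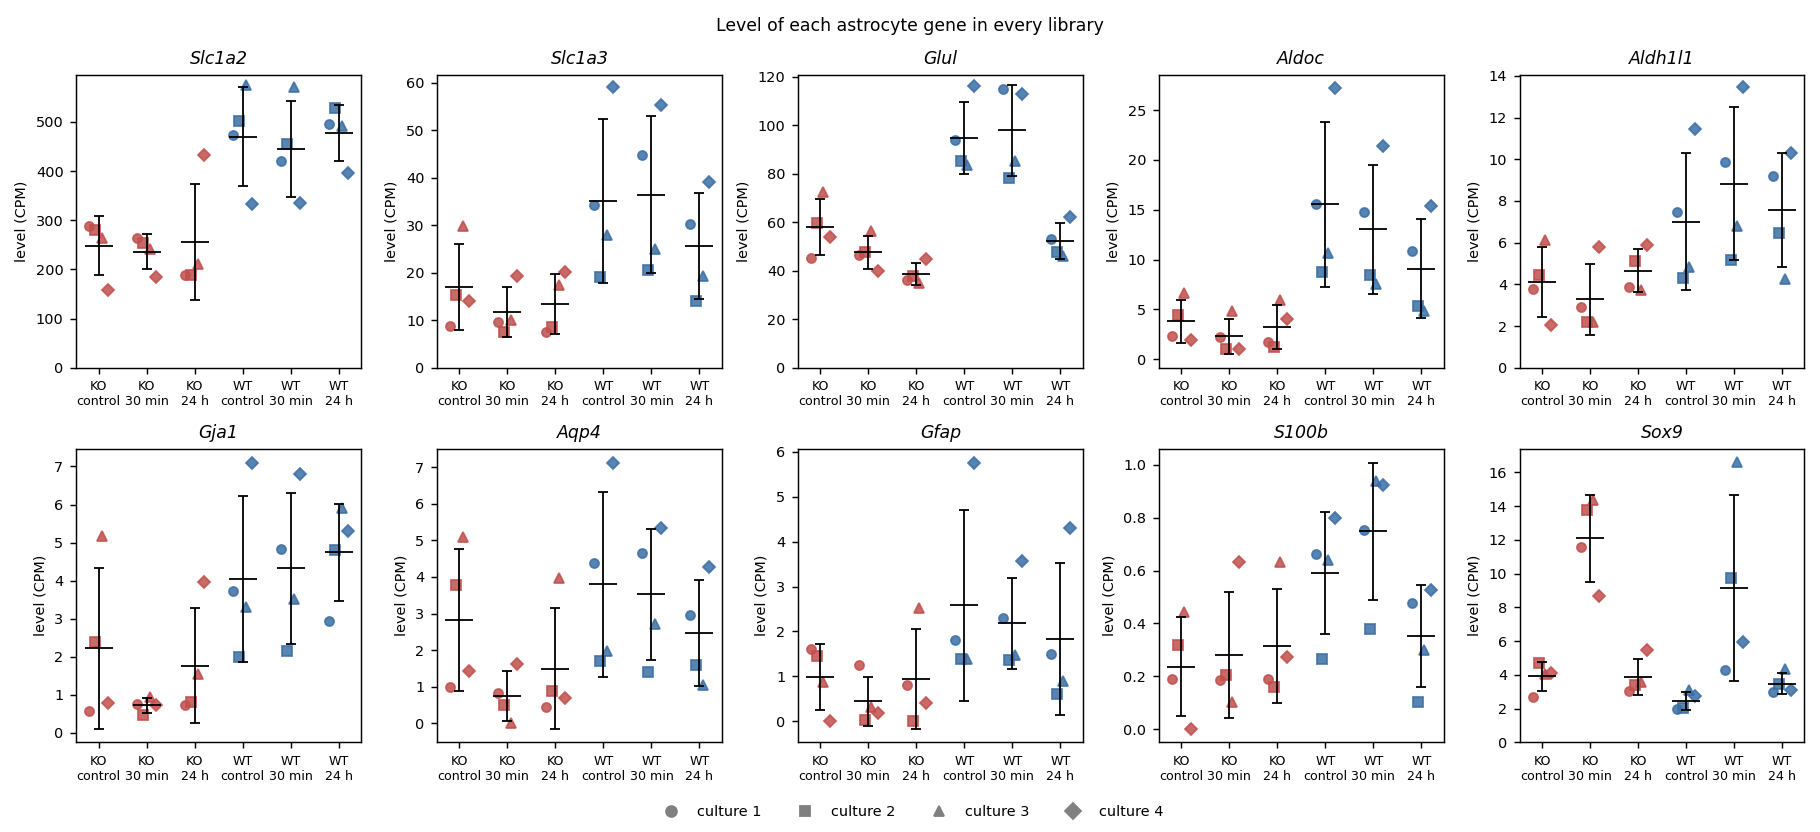
Level of each of the 10 astrocyte genes in CPM (y axis) in the 24 libraries, by group (x axis: KO control, KO BDNF 30 min, KO BDNF 24 h, then the same for WT); marker shapes give the culture, red is KO and blue is WT, and the line and bars are the mean and SD of 4 libraries. Slc1a2, Glul and Aldoc lie lower in KO than in WT at control and 30 min, Glul falls at 24 h in both genotypes, and Sox9 peaks at 30 min in both.

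The first question is how the astrocyte genes differed between the genotypes. They were lower in KO: 3 of the 10 (Aldoc, Glul and Slc1a2) in control cultures, 7 of the 10 (these and Aldh1l1, Aqp4, Gja1 and Slc1a3) at 30 min of BDNF, and 1 of the 10 (Slc1a2) at 24 h, by edgeR's quasi-likelihood test at an adjusted p under 0.05. None was higher in KO. The shares of all tested genes called in the same comparisons, in either direction, were 21.4% in control, 28.4% at 30 min and 13.3% at 24 h. The members' counts in control and at 24 h lay near these shares. As the members were chosen with earlier results of these data known, these shares describe a background and test nothing. Of the 16777 genes tested, 1689, 2308 and 1034 were called lower in KO at these times. The members' median difference (log2, KO over WT) was -0.89 in control, -1.55 at 30 min and -0.83 at 24 h, and over all genes tested it was 0.03, 0.02 and 0.00. At each time the fitted difference lay below 0 for 9 of the 10 members, with Sox9 the exception. In bulk RNA, fewer cells of a type and less RNA of a gene per cell cannot be told apart.

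Among the glutamate transporters, Slc1a2 was lower in KO at all 3 times. In control cultures Slc1a2 had 289, 280.5, 264 and 159 CPM in KO, against 473, 501, 575 and 332 CPM in WT. After 30 min its levels were 264, 254, 242 and 186 CPM in KO and 420, 456, 571 and 335 CPM in WT. At 24 h they were 188, 189, 212 and 433 CPM in KO and 496, 528, 492 and 395 CPM in WT. Every KO library lay below every WT library in control and at 30 min, and at 24 h only the KO library of replicate 4, the one with the low Hist2h2be count, reached into the WT range. On the log2 scale KO differed from WT by -0.92 ± 0.24 (SE; adjusted p = 0.0074) in control, -0.92 ± 0.24 (adjusted p = 0.00594) at 30 min and -0.90 ± 0.24 (adjusted p = 0.0139) at 24 h, by edgeR's quasi-likelihood test. Without KO 24 h replicate 4 the 24 h value was -1.29 (adjusted p = 0.000128), and it was no longer called when KO 24 h replicate 1, 2 or 3 was left out.

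Slc1a3 (chr15:8634124-8710764, minus strand), the transporter with the stricter restriction to glia, had 8.73, 15.3, 29.9 and 13.96 CPM in KO control and 34.3, 18.99, 27.9 and 59.1 CPM in WT control, and the groups overlapped. At 30 min the KO libraries had 9.68, 7.61, 10.04 and 19.3 CPM and the WT libraries 44.8, 20.6, 25.1 and 55.3 CPM. All 4 KO libraries then lay below all 4 WT libraries, the nearest pair being 19.3 CPM in KO and 20.6 CPM in WT. The fall in KO passed the test at 30 min (log2 fold change -1.65 ± 0.44, adjusted p = 0.0071, edgeR) and not in control (-1.05 ± 0.43, adjusted p = 0.0886) or at 24 h (-0.94 ± 0.43, adjusted p = 0.165). In control it was called without KO control replicate 3, the highest KO library (-1.48, adjusted p = 0.027). At 24 h Slc1a3 ranged over 7.48 to 20.1 CPM in KO and 14.1 to 39.1 CPM in WT.

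Glul, the glutamine synthetase gene (chr1:153899944-153909723, plus strand), separated the genotypes most tightly. It had 45.3, 59.8, 72.6 and 53.9 CPM in KO control and 93.7, 85.3, 83.6 and 116 CPM in WT control. At 30 min the levels were 46.6, 47.6, 56.2 and 39.9 CPM in KO and 115, 78.2, 85.2 and 113 CPM in WT. At 24 h they were 36.3, 37.9, 35.0 and 45.0 CPM in KO and 53.1, 47.7, 46.1 and 62.2 CPM in WT. No KO library reached the lowest WT library of its own time. The log2 fold change was -0.71 ± 0.15 (adjusted p = 0.00188) in control and -1.04 ± 0.15 (adjusted p = 3.57e-05) at 30 min, both past edgeR's test, and -0.44 ± 0.15 (adjusted p = 0.0601) at 24 h, which was not. Without the doubtful libraries the 24 h difference was called (-0.51, adjusted p = 0.0195), and the 30 min call held under all 18 alternatives run.

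Of the metabolic enzymes, Aldoc (chr11:78322968-78327781, plus strand of mm10) had 2.31, 4.44, 6.59 and 1.93 CPM in KO control and 15.6, 8.79, 10.7 and 27.2 CPM in WT control. At 30 min it had 2.20, 1.049, 4.84 and 0.994 CPM in KO and 14.8, 8.44, 7.503 and 21.4 CPM in WT. KO lay wholly below WT at both times. The log2 fold changes of -2.02 ± 0.56 (adjusted p = 0.0124) and -2.57 ± 0.59 (adjusted p = 0.00218) passed edgeR's test and correspond to 0.247 and 0.168 of the WT level. At 24 h the KO libraries, at 1.72, 1.17, 5.98 and 4.07 CPM, overlapped the WT libraries, at 10.8, 5.31, 4.86 and 15.3 CPM, and the difference did not pass (-1.50 ± 0.56, adjusted p = 0.0767). It was called without the doubtful libraries (-1.65, adjusted p = 0.0385) and without KO 24 h replicate 3, the highest KO library (-1.97, adjusted p = 0.0499). The control call was lost without WT control replicate 4, the highest library (-1.60, adjusted p = 0.0569). Aldh1l1 was lower in KO at 30 min (-1.44 ± 0.39, adjusted p = 0.00735, edgeR), with 2.91, 2.22, 2.21 and 5.78 CPM in KO and 9.87, 5.16, 6.79 and 13.5 CPM in WT. Only the KO library of replicate 4 overlapped WT there. In control Aldh1l1 had 2.07 to 6.15 CPM in KO and 4.29 to 11.5 CPM in WT, and at 24 h 3.71 to 5.87 CPM in KO and 4.25 to 10.3 CPM in WT, and neither difference passed.

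The channel genes Gja1 and Aqp4 passed the test between the genotypes at 30 min, and not in control or at 24 h. Gja1 (chr10:56377330-56402513, plus strand) had 0.746, 0.474, 0.927 and 0.723 CPM in KO 30 min libraries and 4.83, 2.14, 3.50 and 6.81 CPM in WT 30 min libraries, a log2 fold change of -2.62 ± 0.62 (adjusted p = 0.0031, edgeR). The groups did not overlap, and this call held under all 18 alternatives. In control, Gja1 had 0.566, 2.38, 5.16 and 0.770 CPM in KO and 3.73, 1.98, 3.31 and 7.10 CPM in WT, and the overlap left it short of the threshold (-0.86 ± 0.57, adjusted p = 0.311). At 24 h its levels were 0.727, 0.805, 1.55 and 3.97 CPM in KO and 2.95, 4.80, 5.91 and 5.31 CPM in WT (-1.42 ± 0.57, adjusted p = 0.106). Here too the KO library of replicate 4 was the one within the WT range, and without it the difference was called (-2.23, adjusted p = 0.0105), as it was without all the doubtful libraries (-2.22, adjusted p = 0.00632). Aqp4 had 0.821, 0.508, 0 and 1.63 CPM in KO 30 min libraries and 4.65, 1.42, 2.71 and 5.34 CPM in WT 30 min libraries (-2.25 ± 0.77, adjusted p = 0.0318, edgeR). Its groups overlapped at replicate 4 of KO, and the call was lost in 8 of 18 alternatives, among them the one without the doubtful libraries (-2.40, adjusted p = 0.0516). In control Aqp4 ranged over 0.991 to 5.10 CPM in KO and 1.72 to 7.13 CPM in WT, with no call.

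Gfap and S100b had low levels, with counts of 0 in some KO libraries, and were not called in any comparison. Gfap had 1.25, 0.0338, 0.309 and 0.181 CPM in KO 30 min libraries and 2.30, 1.35, 1.48 and 3.57 CPM in WT 30 min libraries, which did not overlap, and its log2 fold change of -2.21 ± 1.0 had an adjusted p of 0.104 in edgeR's test. Without KO 30 min replicate 1, the highest of the KO libraries, Gfap was called (-3.93, adjusted p = 0.0239). It had a count of 0 in KO control replicate 4 and KO 24 h replicate 2, which allows up to 0.144 and 0.0604 CPM at 3 counts, a limit that covers counting error only. S100b stayed between 0 and 0.632 CPM in KO and between 0.102 and 0.938 CPM in WT, and its difference at 30 min (-1.44 ± 0.67, adjusted p = 0.111) was called only without the doubtful libraries (-1.91, adjusted p = 0.0392) and without KO 30 min replicate 4 alone (-2.11, adjusted p = 0.0327).

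Sox9 (chr11:112782224-112787760, plus strand) alone did not follow the other members. It had 2.71, 4.70, 4.08 and 4.14 CPM in KO control and 1.99, 2.07, 3.08 and 2.78 CPM in WT control (log2 fold change 0.66 ± 0.31, adjusted p = 0.145). At 30 min its levels were 11.6, 13.8, 14.4 and 8.67 CPM in KO and 4.27, 9.73, 16.6 and 5.95 CPM in WT (0.40 ± 0.30, adjusted p = 0.334). Both genotypes overlapped at every time, and the difference at 24 h was 0.16 ± 0.31 (adjusted p = 0.811, edgeR). It was called at 30 min only without WT 30 min replicate 3 (0.86, adjusted p = 0.0232).

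**Figure D2:**
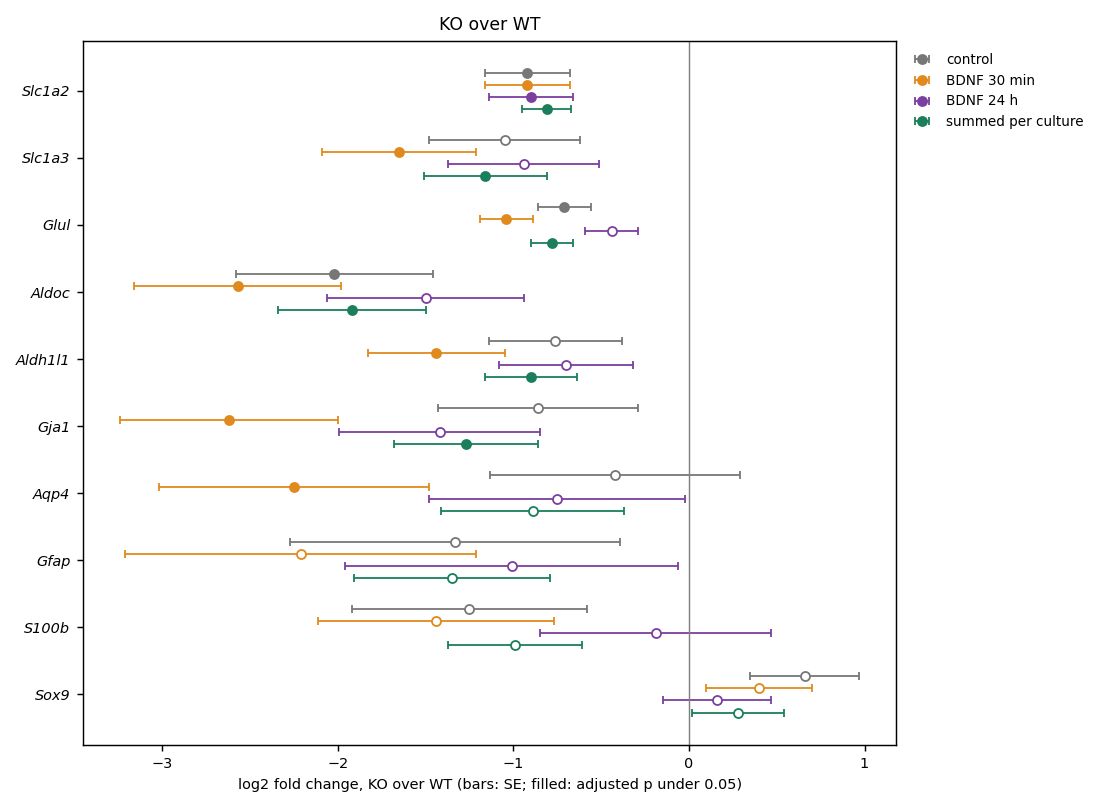
Log2 fold change of KO over WT (x axis) for each astrocyte gene (y axis) in control, at BDNF 30 min, at BDNF 24 h and for counts summed over the 3 libraries of a culture; bars are SE and filled points have an adjusted p under 0.05. The points of 9 genes lie left of 0 in all 4 comparisons, and Sox9 lies right of 0.

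By their labels 3 libraries come from each culture, so the genotypes were also compared over 4 KO and 4 WT cultures, each with its counts summed. The sum of KO culture 4 includes its 24 h library, whose Xist and Ddx3y levels set it apart from the other 2. Then 6 of the 10 astrocyte genes were lower in KO, where 25.8% of the 17783 genes tested were called in either direction. They were Glul (-0.78 ± 0.12, adjusted p = 0.00154), Slc1a2 (-0.81 ± 0.14, adjusted p = 0.00306), Aldoc (-1.92 ± 0.42, adjusted p = 0.00879), Aldh1l1 (-0.90 ± 0.26, adjusted p = 0.0296), Slc1a3 (-1.16 ± 0.35, adjusted p = 0.0361) and Gja1 (-1.27 ± 0.41, adjusted p = 0.0468), by edgeR. S100b (-0.99 ± 0.38), Gfap (-1.35 ± 0.56) and Aqp4 (-0.89 ± 0.52) lay below 0 without passing, and Sox9 lay at 0.28 ± 0.26. With 1 culture left out at a time, Glul, Slc1a2 and Aldoc were called in all 8 fits, and without KO culture 4 the same number, 6 of the 10, was called. Aldh1l1 and Gja1 each lost their call in 5 of those 8 and Slc1a3 in 4. Without the doubtful libraries 5 of the 10 were called, and Gja1 lost its call (-1.38, adjusted p = 0.0525). The descriptions of the libraries are spelled in 2 ways, which separate WT cultures 1 and 2 and KO culture 1 from the rest. In the larger of these sets, with 3 KO and 2 WT cultures, the direction was the same for the 6 genes and none of the 10 passed the test, and the smaller set had 1 KO culture and was not fitted.

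BDNF acts on neurons through the receptor TrkB and switches on early genes within minutes, and the next question is which astrocyte genes changed with it. At 30 min, 1 of the 10 was higher in each genotype, and it was Sox9 both times, where 0.125% of all tested genes were called in KO and 0.37% in WT. Sox9 had 11.6, 13.8, 14.4 and 8.67 CPM in KO 30 min libraries and 2.71, 4.70, 4.08 and 4.14 CPM in KO control, a log2 fold change of 1.63 ± 0.31 (adjusted p = 0.0227, edgeR). In WT the 30 min libraries had 4.27, 9.73, 16.6 and 5.95 CPM and the control libraries 1.99, 2.07, 3.08 and 2.78 CPM, a log2 fold change of 1.88 ± 0.32 (adjusted p = 0.00155). In both genotypes all 4 cultures were higher and no treated library overlapped a control library. By 24 h the KO libraries, at 3.06 to 5.47 CPM, and the WT libraries, at 2.97 to 4.36 CPM, overlapped their controls (-0.01 ± 0.31 in KO and 0.49 ± 0.31 in WT). Within cultures, Sox9 at 24 h was still above control in 4 of 4 in WT and in 2 of 4 in KO, and neither response was called. The KO call was lost in 7 of the 8 fits that left out 1 library and without the doubtful libraries (1.72, adjusted p = 0.16), with a log2 fold change of 1.49 to 1.76 throughout. The WT call was lost where only the groups compared entered the fit and in the larger set alone.

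At 24 h, 1 of the 10 was lower in each genotype, and it was Glul both times, against 5.61% of all tested genes called in KO and 18.7% in WT. A count of 1 of the 10 lay near these shares. In WT its mean was 94.7 ± 14.98 CPM in control, 97.9 ± 18.9 CPM at 30 min and 52.3 ± 7.24 CPM at 24 h (SD, n = 4). In KO it was 57.9 ± 11.5 CPM in control, 47.6 ± 6.72 CPM at 30 min and 38.55 ± 4.46 CPM at 24 h. Glul fell by 0.86 ± 0.15 on the log2 scale in WT (adjusted p = 0.000372, edgeR) and by 0.59 ± 0.15 in KO (adjusted p = 0.0258), and in both genotypes all 4 treated libraries lay below all 4 controls. With culture as a block, which the culture code of the descriptions allows within a genotype, 2 of the 10 were lower in WT at 24 h, Glul and Aldoc (-0.80, adjusted p = 0.0421). The KO call of Glul was lost in 5 of the 8 fits without 1 library.

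The other astrocyte genes showed no called response at either time. In WT at 24 h, though, Aldoc, Slc1a3, Gfap, Aqp4 and S100b were higher than control in 0 of 4 cultures. Slc1a2, Gja1 and Aldh1l1 were higher in 3, 2 and 2. How many of all genes were lower in every culture is not given here. The median response of the 10 members was -0.47 in WT at 24 h, and over all genes tested it was -0.01. In KO at 24 h these medians were -0.21 and -0.03. Slc1a2 had log2 fold changes of -0.08 to 0.04 with an SE of 0.24 in the 4 responses. Its KO value at 24 h (0.04) depended on replicate 4, the library with the low Hist2h2be count, at 433 CPM against 159 CPM in control. KO replicates 1 to 3 fell from 289, 280.5 and 264 CPM in control to 188.5, 189 and 212 CPM at 24 h. Over 18 alternatives that value ran from -0.49 to 0.25 and was not called. The largest differences short of the threshold were in KO at 30 min, where Aqp4 had -1.94 ± 0.77 and Gja1 -1.66 ± 0.62 (adjusted p = 0.9999 for each in edgeR's test). For Gja1, 3 of 4 KO cultures were lower at 30 min than in control, with the control libraries of replicates 2 and 3 high. Neither response differed between the genotypes for any of the 10, by a test of the difference itself, where 0.0477% of all genes were called at 30 min and 0.0358% at 24 h. Over all genes 301 and 940 had an unadjusted p under 0.05 in these tests, and DESeq2 called 0 of the 10 as well. For Sox9 the difference was -0.25 ± 0.43 at 30 min, for Glul 0.27 ± 0.22 at 24 h, and for Gja1 -1.76 ± 0.83 at 30 min, which at this spread does not show that the genotypes responded alike.

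**Figure D3:**
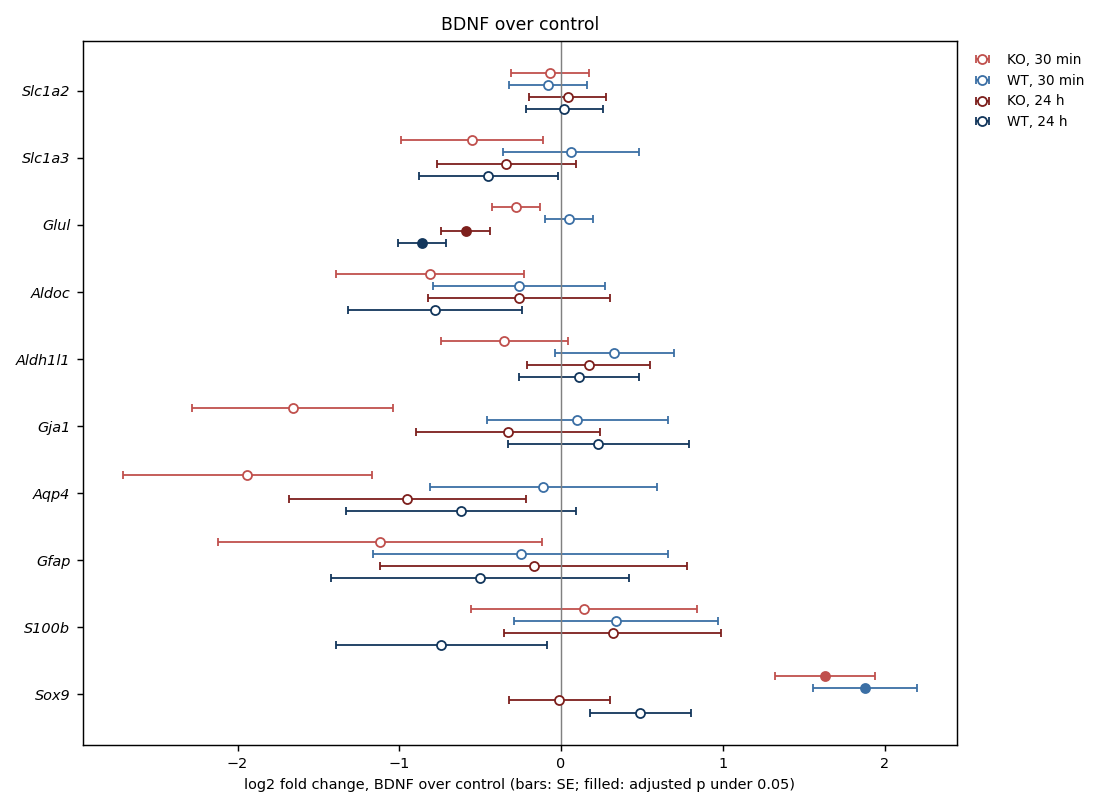
Log2 fold change of BDNF over control (x axis) for each astrocyte gene (y axis) in KO and WT at 30 min and at 24 h; bars are SE and filled points have an adjusted p under 0.05. Sox9 at 30 min lies at 1.63 in KO and 1.88 in WT, Glul at 24 h lies at -0.59 in KO and -0.86 in WT, and the other points are open.

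Libraries of a group varied in astrocyte gene level, and most members varied together. After the mean of each group was removed, Slc1a3 correlated with Gja1 at r = 0.75 and with Aldh1l1 at r = 0.75, Aldoc with Glul at r = 0.74, and Gja1 with Glul at r = 0.72, across 24 libraries that share cultures, depth and library composition. Slc1a3 had the highest median correlation with the other 9 members, 0.64. Slc1a2 and Sox9 stood outside, with medians of 0.03 and -0.09. WT culture 4 shows this in single values: averaged over its 3 libraries it had 21.3 CPM of Aldoc, 51.2 CPM of Slc1a3, 6.41 CPM of Gja1 and 11.7 CPM of Aldh1l1, the highest of the WT cultures for each, and 354 CPM of Slc1a2, the lowest. Those 3 libraries had 8941 to 9148 CPM of neuron markers. Among the genes whose level over the 24 libraries was most like the mean of the members were Slc38a3 (r = 0.935), a glutamine transporter, Acsbg1 (0.932), an acyl-CoA synthetase, Mlc1 (0.92), an astrocyte membrane protein, and Adam10 (0.919), a membrane protease. Dio2, 2900052N01Rik, Acvr2a, Marcks and Bcan followed at 0.912 to 0.895. These correlations include the differences between the groups. With group means removed they were 0.661 to 0.898.

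**Figure D4:**
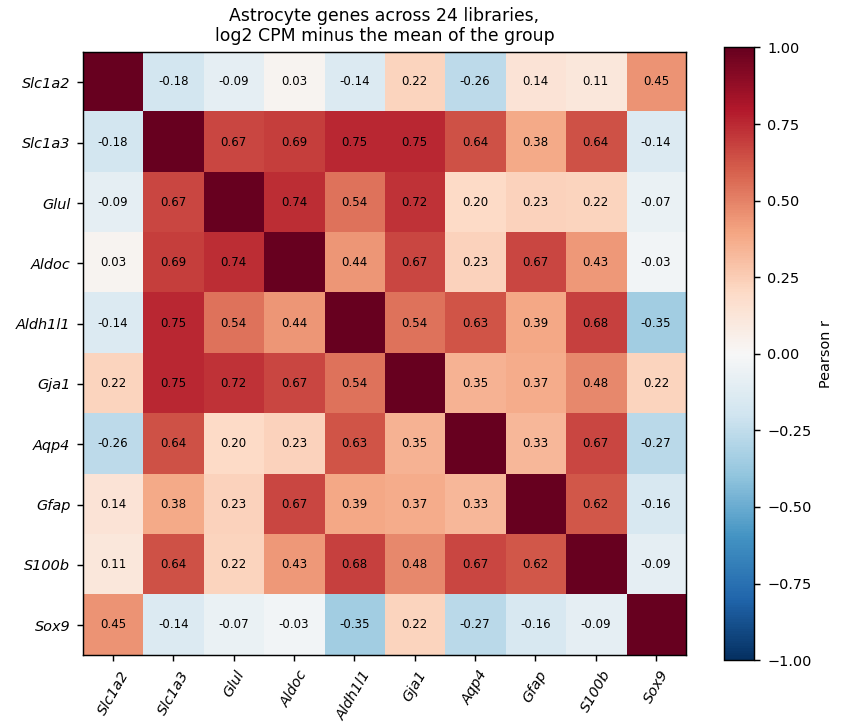
Pearson correlation between each pair of astrocyte genes across 24 libraries, computed on log2 CPM after subtraction of the group mean; both axes list the genes and the colour and number give r. Slc1a3 and Gja1 reach 0.75, while the median r with the other 9 genes is 0.03 for Slc1a2 and -0.09 for Sox9.

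Other astrocyte genes moved less evenly. Of 31 tested genes of a wider list of astrocyte markers, 2 were lower and 4 higher in KO control, 12 lower and 4 higher in KO at 30 min, and 0 lower and 4 higher in KO at 24 h, by edgeR. Of all genes tested, 21.4%, 28.4% and 13.3% were called at these times, so the counts in control and at 24 h lay near the background. The median log2 fold change was -0.23, -0.64 and -0.28. Lower in KO at 30 min were Acsbg1 (-2.16 ± 0.53), Dio2 (-1.99 ± 0.53), the enzyme that activates thyroid hormone, and Mlc1 (-1.85 ± 0.54), with adjusted p of 0.00406 to 0.0121. Higher in KO control were the metallothionein genes Mt1 (1.09 ± 0.20) and Mt3 (0.68 ± 0.16) and the endothelin receptor gene Ednrb (1.03 ± 0.32), and the GABA transporter gene Slc6a11 was lower (-0.97 ± 0.27). Slc4a4, a bicarbonate transporter gene, was higher in KO at 24 h (1.19 ± 0.26, adjusted p = 0.00388). Without the doubtful libraries, the counts were 3 lower and 5 higher in control, 13 and 4 at 30 min, and 3 and 8 at 24 h. The share of all genes called in that fit is not given here. After 24 h of BDNF, 5 of the 31 were lower and 2 higher in WT, and 1 was lower and 1 higher in KO. Of all genes tested, 18.7% were called in WT and 5.61% in KO. The median responses of the list were -0.49 in WT and -0.22 in KO.

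Other genes of glutamate and glutamine handling, most of which neurons also express, moved both ways. Of 9 tested, 1 was lower and 3 higher in KO control, 3 and 4 at 30 min, and 2 and 2 at 24 h, where 21.4%, 28.4% and 13.3% of all genes were called. The glutamine transporter gene Slc38a3 was lower in KO at 30 min (-2.35 ± 0.53, adjusted p = 0.00207, edgeR). The aspartate aminotransferase gene Got2 was higher in KO at all 3 times (0.54 ± 0.07, 0.61 ± 0.07 and 0.39 ± 0.07).

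Of 11 tested genes linked to reactive astrocytes, 4 were higher in KO in control, 5 at 30 min and 1 at 24 h, and none was called lower. Of all genes 21.4%, 28.4% and 13.3% were called in either direction. The fitted difference lay below 0 for 3, 3 and 2 of the 11, and the medians were 0.63, 0.72 and 0.53. Without the doubtful libraries 13 were tested, with 5, 4 and 3 higher and 0, 0 and 1 lower in KO at the 3 times. No share of all genes is given for that fit. Emp1, a membrane protein gene, had a log2 fold change of 3.90 ± 0.55 in control (adjusted p = 3.13e-05, edgeR), Serpina3n, a protease inhibitor gene, 1.76 ± 0.31 (adjusted p = 0.00024), and Stat3, a transcription factor gene, 0.76 ± 0.15 (adjusted p = 0.000675). Summed over 18 genes of the list, the level was 106 to 142 CPM in KO control and 74.2 to 96.1 CPM in WT control, and these ranges did not overlap. At 24 h of BDNF 3 of the 11 were higher in KO, and 5 were higher and 1 lower in WT, where 5.61% of all genes were called in KO and 18.7% in WT. In each genotype 5 of the 11 had a fitted response below 0. Among those called were Vim, the vimentin gene, at 1.43 ± 0.25 in KO and 1.52 ± 0.25 in WT and Cd44, the hyaluronan receptor gene, at 1.31 ± 0.29 in KO and 1.17 ± 0.29 in WT. These genes are not restricted to astrocytes, and the main reactive filament gene, Gfap, did not pass in any of these comparisons.

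Of 16 genes of radial glia and of factors that drive gliogenesis, 4 were lower and 1 higher in KO control, 6 and 1 at 30 min, and 2 and 1 at 24 h, against the same shares of all genes (21.4%, 28.4% and 13.3%). The Notch target Hes1 was lower in KO at all 3 times (-2.16 ± 0.38, -3.06 ± 0.38 and -1.23 ± 0.35), and the nuclear factor I genes Nfia (-1.19 ± 0.23) and Nfib (-0.97 ± 0.19) were lower in KO control, with adjusted p of 5.52e-06 to 0.023 over these values. Ptprz1, a receptor phosphatase gene, was higher in KO control (0.87 ± 0.29, adjusted p = 0.0315). Tnc, an extracellular matrix gene, was higher at 24 h of BDNF in KO (2.28 ± 0.38) and in WT (2.83 ± 0.39).

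Some markers of other cells were called in the same comparisons, in which 21.4%, 28.4% and 13.3% of all genes were called. These shares are from the fit with every library, and none is given without the doubtful libraries. Neuron markers summed to 8437 to 9647 CPM in KO and 7825 to 9148 CPM in WT, and of 10 tested 3 were lower and 2 higher in KO control, 3 and 3 at 30 min, and 0 and 1 at 24 h. Without the doubtful libraries 4 were lower and 4 higher in KO control, 4 and 1 at 30 min, and 1 and 3 at 24 h. Tubb3, neuronal tubulin, was lower in KO control (-0.73 ± 0.08), as was Slc17a7 (-0.74 ± 0.25), a marker of excitatory neurons, and Gad1 (1.03 ± 0.28) and Gad2 (1.19 ± 0.42), markers of inhibitory neurons, were higher. Of 7 tested microglia markers 1, 2 and 1 were higher in KO in control, at 30 min and at 24 h, from a summed level of 8.90 to 16.9 CPM in KO and 7.78 to 11.5 CPM in WT over 10 genes. Of 8 tested oligodendrocyte lineage markers 1, 1 and 2 were lower in KO, with Mog at -0.98 ± 0.20 in control. Without the doubtful libraries 1, 3 and 2 of these 8 were lower, and 1 was higher in control. Of 4 tested endothelial markers 0 were called at any of the 3 times, and of 6 mural and fibroblast markers 0, 2 and 1. Without the doubtful libraries 1 of 5 tested endothelial markers was higher in KO control. The mitochondrial share of counts was also higher in 6 KO libraries, those of cultures 3 and 4, than in every WT library. The part of these differences in the astrocyte gene results was not tested.

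**Figure D5:**
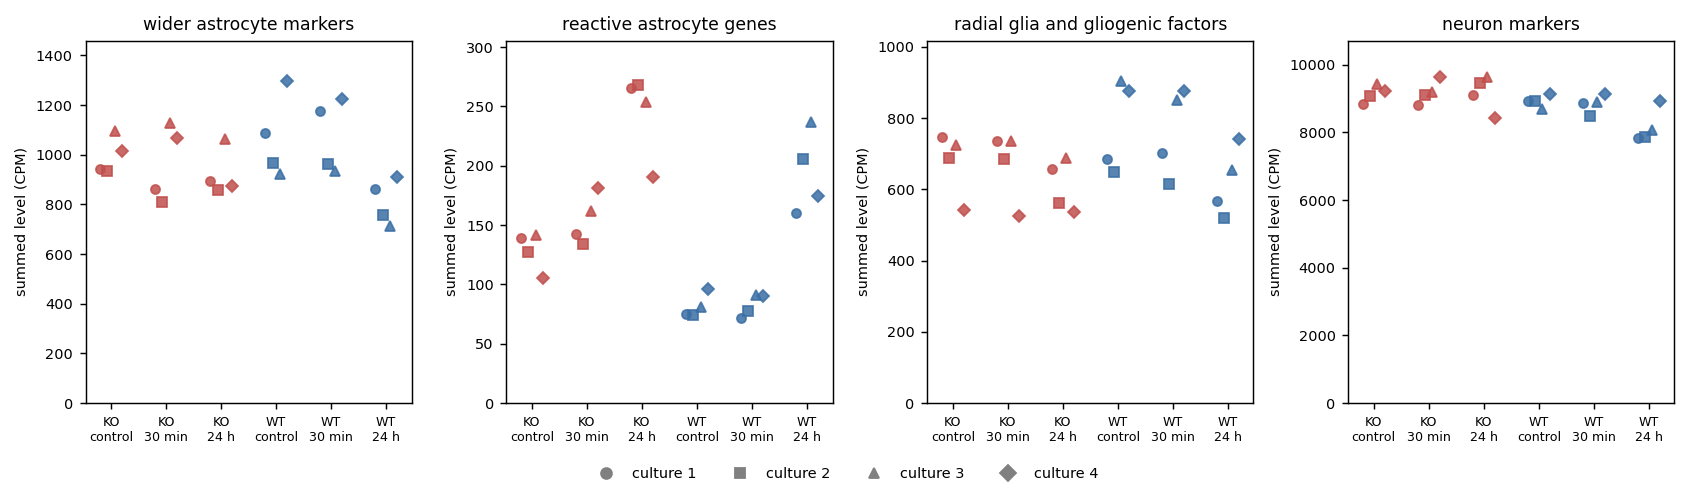
Summed level in CPM (y axis, from 0) of the wider astrocyte markers, the reactive astrocyte genes, the radial glia and gliogenic factors and the neuron markers in each library, by group (x axis), with red for KO, blue for WT and marker shapes for the culture. Reactive genes sum to 106 to 142 CPM in KO control and 74.2 to 96.1 CPM in WT control, and neuron markers stay between 7825 and 9647 CPM in all libraries.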

How the data were processed

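Messenger RNA was measured in 24 libraries of mouse primary cortical neurons, made from polyadenylated RNA with a stranded TruSeq kit, per the labels' protocols. The deposited table holds unnormalised counts, 1 whole number per gene and library. The submitters' processing notes name STAR 2.7.9a, mm10, edgeR 3.40.2, limma 3.54.2 and DESeq2 1.38.3. Not given in the sources used here are the program that made the counts, its strand setting and its annotation, so reads of Slc1a2, Slc1a3, Glul, Gfap, Aqp4, S100b and Aldh1l1, which overlap other genes, cannot be told apart from theirs with certainty. In each library 58.0% to 77.7% of genes with a count had an even count. If mates of a pair were counted singly, a count would not be 1 fragment, and printed counts and limits from 3 counts would stand for fewer molecules. This was not tested. Symbols, exon lengths and coordinates came from GENCODE M21 on mm10 by identifier without version, which named 45143 of 45792 genes (98.6%). All 24 columns were used.

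Tests used edgeR 4.0.16 under R 4.3.3. The filter filterByExpr (count of 10, total of 15) left 16777 genes. One quasi-likelihood model with a mean per group, TMM factors (0.824 to 1.07) and 18 residual degrees of freedom gave all contrasts, with Benjamini-Hochberg adjustment over all genes tested and calls at an adjusted p under 0.05. This model treated libraries of a culture as independent. The 18 degrees of freedom may thus overstate the independent spread behind its p-values, those between genotypes at each time included. Counts summed per culture were fitted the same way over 8 cultures (17783 genes, 6 residual degrees of freedom). Each SE was obtained as the fold change (log2) over the root of its F statistic. The biological coefficient of variation was 23.5%, and 20.7% over cultures. Levels are CPM with TMM factors. Log2 CPM used a prior count of 2. The model was tested on simulated data, in which libraries were drawn independently and shared no culture.

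The labels do not say whether replicates came from separate animals, so p-values measure the spread between these samples. In control, Xist was high in WT replicates 1 and 3 (640 and 555 CPM) and KO replicates 2 and 4 (500 and 423 CPM). Ddx3y was high in the other control libraries, so the cultures of a genotype were not all from 1 embryo. A culture code in the descriptions ties libraries with the same replicate number to one culture within each genotype. Their deviations from group means correlated at 0.046 to 0.462, over 0.1 in 22 of 24 pairs. Between genotypes libraries share only a number. Named genes were all 10 members, up to 4 called genes of each glial or glutamate list with the largest change and a mean of at least 1 CPM, the 10 genes outside the members most correlated with their mean, and Hist2h2be. A gene that this rule also picks is not reported here. The markers of other cells that are named, and Xist and Ddx3y, were chosen after their values were seen. The members, the lists and the rule were chosen with earlier results of these data known. Alternatives were other scalings, no filter, DESeq2 1.42.0, only the groups compared, libraries left out, the set of cultures and a block.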

Additional observations from a re-analysis of the deposited data

Results flagged for a closer look

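In 3 of 60 groups of 4 libraries, 1 library lay far from the other 3 by Dixon's test, and chance gives such a library in about 1 in 20 groups. Slc1a2 had 433.2 CPM in the library labelled KO BDNF 24 h replicate 4, where the other KO 24 h libraries had 188 to 212 CPM, and this is the library with the low Hist2h2be count. Gfap had 5.764 CPM in WT control replicate 4, where the other WT control libraries had 1.39 to 1.80 CPM. Aqp4 had 3.967 CPM in KO BDNF 24 h replicate 3, where the other KO 24 h libraries had 0.459 to 0.886 CPM.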

How the results depend on the processing

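The number of astrocyte genes called, of 10, kept within 1.5 times of the reported one under RLE or upper-quartile scaling, without mitochondrially encoded genes and without a filter, in all 10 comparisons. In the larger set of cultures alone (3 KO and 2 WT), it was 0 for the 4 BDNF responses, 0 for KO over WT in control and at 24 h, 0 for culture sums and 2 at 30 min (Gja1 and Glul), with fewer samples by construction. For KO over WT at 24 h, reported as 1, it was 3 with DESeq2, 2 with only the groups compared, 4 without KO culture 4 and KO 30 min replicate 3, 4 with set as a term and 5 with the replicate block. With only the groups compared it was 0 for the KO response at 24 h and 0 for the WT response at 30 min, and it was 0 for the KO response at 30 min in the fit that left out KO culture 4 with KO 30 min replicate 3; the cause was not tested. The replicate block gave 2 for the WT response at 24 h, and apart from these 2 comparisons left the counts within 1.5 times; between genotypes, which share only a number, it called Slc1a3 in control (-0.90, adjusted p = 0.0446) and at 24 h (-0.95, adjusted p = 0.0471). With set as a term Slc1a3 was called in control (-1.22, adjusted p = 0.0328). Leaving out 1 library or culture gave 0 to 1 for both KO responses, 1 for both WT responses, 2 to 4, 6 to 8 and 0 to 3 for KO over WT in control, at 30 min and at 24 h, 0 for the differences in response and 3 to 7 for culture sums. The share of all genes called in each alternative fit is not given here. None of these counts can thus be set against a background, and a change may follow one over all genes. Of 1949 single-gene values under alternatives, 60 lost their call, 26 gained one and 0 of those called in either fit changed direction, while 104 uncalled values changed sign. S100b, with 0 to 44 counts a library, has the lowest depth of the 10; the part of depth in its missing calls was not tested.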
